A study of Mus musculus with 8 samples.

Results

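The 10 genes described here encode chains of cytokine receptors: Il6st, Il6ra, Osmr and Lifr of the IL-6 family, Il4ra and Il13ra1 of the type 2 cytokines IL-4 and IL-13, Il10rb, Il22ra1 and Ifngr1 of the class II family, and Il17ra of the IL-17 family. They were taken by symbol as receptor chains that feed STAT3 or STAT6 in epithelium, with earlier results of these data known. All 10 were found among the 25124 genes of the deposited table. The cells were sorted from the lungs of C57BL/6 mice and labelled airway epithelial cells. The 4 groups, of 2 RNA-seq libraries each, were STAT3-WT mice given HDM (house dust mite, an allergen), STAT3-cKO mice (conditional knockout of Stat3) given HDM, STAT3-WT mice given PBS (saline) and STAT3-cKO mice given PBS. For the Cre line, the cell type of the knockout, the control allele, the HDM schedule, age and sex, the sources used here give nothing. Whether replicate libraries represent different animals is not stated. Every p-value thus sets a difference between groups against the spread of replicate libraries only, and that spread may be technical.

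Cytokine receptors of these families work as assemblies of a chain that recognises the ligand and a chain that is shared. Il6st encodes gp130, the shared signalling chain that pairs with the IL-6 receptor (Il6ra), the oncostatin M receptor (Osmr) or the LIF receptor (Lifr), and it signals mainly through JAK1 and STAT3. Il4ra and Il13ra1 together form the receptor through which IL-4 and IL-13 activate STAT6 in epithelium, the route to mucus genes in allergic airways. Il22ra1 with Il10rb forms the epithelial IL-22 receptor, which signals through STAT3. Ifngr1 is the ligand-binding chain for interferon gamma, and Il17ra acts through the adaptor Act1 towards NF-kB, so these 2 chains fit the rule for choosing the genes less directly.

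Values are the authors' normalized counts, from which whole reads could be recovered. The libraries were shallow, with 232556 to 593200 reads, and 3 reads, taken as the most that a count of 0 allows, were worth 1.96 to 4.88 normalized counts. This floor, like the binomial intervals below, covers counting error only. Stat3, the targeted gene, had 75.8 and 40.9 normalized counts in the STAT3-WT PBS libraries, 56.9 and 96.5 in STAT3-cKO PBS, 134 and 157 in STAT3-WT HDM, and 76.9 and 92.2 in STAT3-cKO HDM. Under HDM both knockout libraries lay below both wild-type libraries, by 0.78 ± 0.39 on the log2 scale (SE; limma adjusted p = 0.549). Under PBS the groups overlapped and the knockout mean was not the lower (log2 difference 0.41 ± 0.39, limma adjusted p = 0.845). The sources do not say which part of Stat3 was deleted, so the level of the whole gene is a weak check of the genotype labels. Part of the gene is overlapped on the other strand by Stat5a, and the use of strand in counting is not stated.

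The libraries of HDM-treated STAT3-WT mice stood apart in the marker genes of other lung cells, and those markers accompany every result below that rests on that group. All 6 epithelial markers (Epcam, Cdh1 and the keratins among them) had reads in every library, but summed to 0.318% to 0.320% of reads in STAT3-WT HDM against 0.395% to 0.447% in the other 6 libraries. Alveolar type 2 markers, such as Sftpc, took 2.14% to 3.02% against 1.01% to 1.40%. Endothelial markers took 0.251% to 0.256%, with 9 to 10 of 10 detected, against 0.0526% to 0.0886%, with 8 to 10 of 10. Fibroblast markers took 0.322% to 0.331%, with 6 to 7 of 7 detected, against 0.0129% to 0.0289%, with 4 to 7 of 7. Macrophage and dendritic markers took 0.301% to 0.487%, with 7 of 7 detected, against 0.0979% to 0.203%, with 1 to 3 of 7. In the first STAT3-cKO PBS library Lyz2 was the only one detected and alone took 0.117%, so 1 gene can carry this share. Leukocyte markers took 0.0108% to 0.0431% against 0.000417% to 0.00473%. Ptprc, the pan-leukocyte gene, had reads in both STAT3-WT HDM libraries and was at 0 in at least 1 library of each other group. Club cell markers such as Scgb1a1 took 1.15% to 1.46% of reads in STAT3-WT HDM and 1.31% to 3.23% in the other groups. Ciliated cell markers such as Foxj1 took 0.292% to 0.331% in STAT3-WT HDM and 0.444% to 0.591% in the other 6 libraries. Goblet markers took 0.354% to 1.09% in the HDM groups and 0.0895% to 0.309% in the PBS groups. Basal cell markers were scarce throughout, with Krt14 and Trp63 at 0 in at least 1 library of every group. In bulk RNA, fewer cells of a type and less RNA per cell cannot be told apart.

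**Figure D1:**
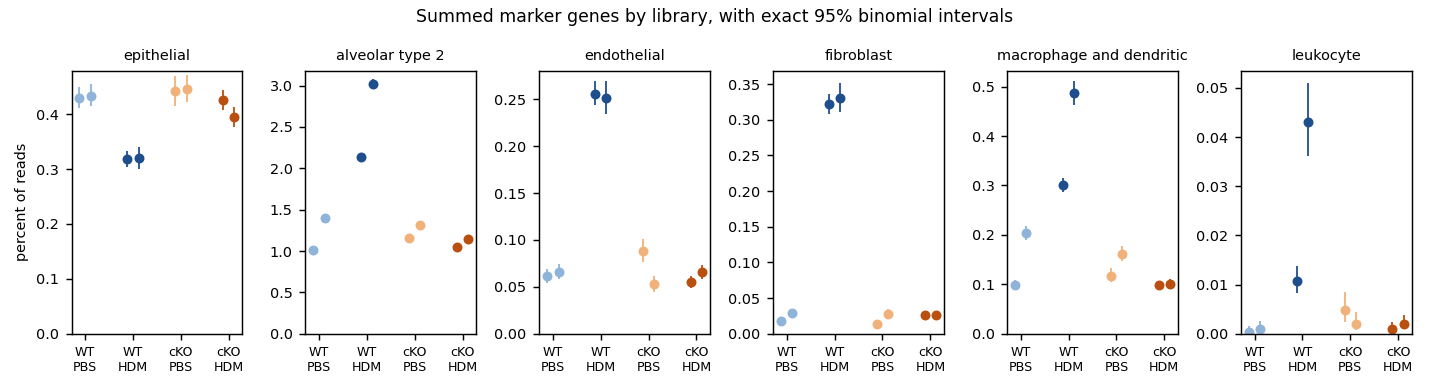
Percent of reads in each library (vertical axes, starting at 0) that fell on 6 lists of marker genes, with exact (Clopper-Pearson) 95% binomial intervals. Points are libraries, in 4 groups. The STAT3-WT HDM libraries were the lowest for epithelial markers (0.318% and 0.320%) and the highest for the other 5 lists.

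The levels of the 10 chains, compared between genes as normalized counts per kb of annotated exon and averaged over the 8 libraries, spanned from 33.9 for Il10rb to 1.13 for Il17ra. Il10rb, the shared chain of the IL-10 and IL-22 receptors, was followed by Il13ra1 at 26.2 and Ifngr1 at 24.4 counts per kb. Then came Il6st at 15.2 and Il22ra1 at 10.1. A lower set held Il4ra at 3.66, Osmr at 3.24, Il6ra at 2.69 and Lifr at 1.69. The order was firm only in outline. Ifngr1 lay above Il6st, and Lifr above Il17ra, in 7 of 8 libraries, whereas Il10rb lay above Il13ra1 in 5 of 8 and Il4ra above Osmr in 4 of 8. Thus the shared chains Il10rb and Il6st were more abundant per kb than their private partners Il22ra1, Il6ra, Osmr and Lifr, and within the type 2 pair Il13ra1 was the more abundant. This held in every library for Il6st over Il6ra, Osmr and Lifr and for Il13ra1 over Il4ra. Il10rb exceeded Il22ra1 in all libraries except the first STAT3-cKO PBS library. The order of the 10 chains depends on annotated exon length, and which isoforms were expressed was not examined. Undivided by length, Il6st had the highest mean (167 normalized counts), before Il13ra1 (97.3) and Il10rb (62.8).

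**Figure D2:**
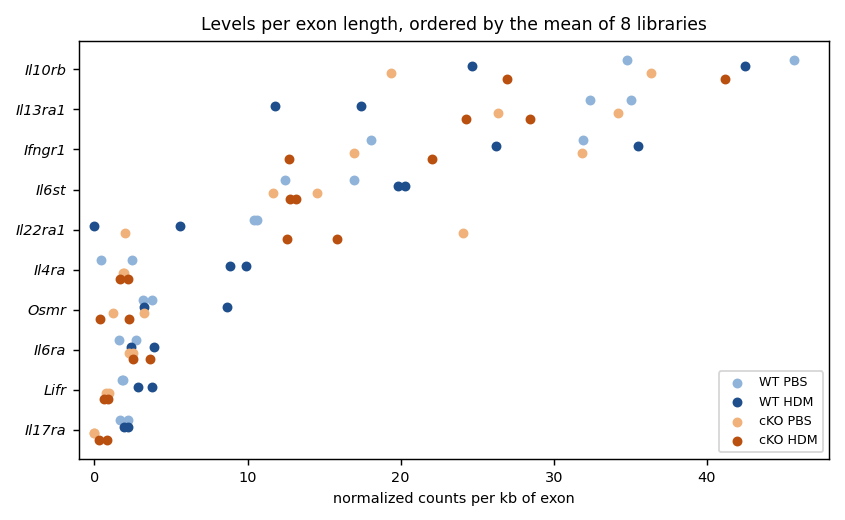
Normalized counts per kb of exon (horizontal axis, linear) for the 10 receptor chains, ordered by their mean over 8 libraries. Each point is a library, coloured by group. Il10rb, Il13ra1 and Ifngr1 lie to the right, and Il4ra, Osmr, Il6ra, Lifr and Il17ra lie mostly below 10 counts per kb.

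The type 2 pair showed opposite patterns in HDM-treated STAT3-WT mice. Il4ra encodes the signalling chain common to all IL-4 and IL-13 receptors and lies on chromosome 7 (125552120 to 125579474, plus strand, mm10). It had 52.2 and 46.4 normalized counts in STAT3-WT HDM (80 and 36 reads). The other libraries had 2.30 and 12.7 in STAT3-WT PBS, 9.76 and 10.2 in STAT3-cKO PBS, and 8.71 and 11.6 in STAT3-cKO HDM, resting on 3 to 14 reads each. Both STAT3-WT HDM libraries therefore lay above all 6 others, as did 8.99% of the 7512 genes tested, and Il4ra reached the minimum for testing through that group. The HDM minus PBS difference in STAT3-WT was 2.90 ± 0.88 on the log2(value + 1) scale, on which all differences here are given (95% interval 1.03 to 4.77; limma adjusted p = 0.244). In STAT3-cKO it was 0.01 ± 0.88 (-1.86 to 1.89). The knockout minus wild-type difference under HDM was -2.18 ± 0.88 (-4.05 to -0.31; limma adjusted p = 0.433). An antisense gene, Gm44876, overlaps Il4ra in the annotation and has no row in the table, so its reads may be counted with those of Il4ra.

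Il13ra1, the chain that binds IL-13 and completes the epithelial receptor, lies on chromosome X (36112110 to 36171259, plus strand, mm10). It had 64.6 and 43.8 normalized counts in STAT3-WT HDM, against 130 and 120 in STAT3-WT PBS, 127 and 97.8 in STAT3-cKO PBS, and 90.0 and 105 in STAT3-cKO HDM. The STAT3-WT HDM libraries were the lowest pair, below all 6 others, as for 6.16% of genes tested. HDM minus PBS was -1.22 ± 0.34 in STAT3-WT (-1.94 to -0.49; limma adjusted p = 0.169) and -0.19 ± 0.34 in STAT3-cKO (-0.91 to 0.53). Knockout minus wild type under HDM was 0.86 ± 0.34 (0.14 to 1.58; limma adjusted p = 0.418). Neither chain of the pair passed the threshold of an adjusted p under 0.05. For HDM in STAT3-WT, Il13ra1 passed when the minimum mean was raised to 50 (limma adjusted p = 0.0460) and Il4ra when only the wild-type libraries were fitted (limma adjusted p = 0.0196). Neither passed for this comparison in the other alternatives run. Il4ra was tested through the STAT3-WT HDM group, so its pass is a description. The test of whether the HDM effect differed between genotypes gave -2.88 ± 1.24 for Il4ra and 1.03 ± 0.48 for Il13ra1, with limma adjusted p of 0.612 and 0.638. The non-epithelial and alveolar markers given above were high, and the epithelial and ciliated markers low, in the same libraries. Their part in the Il4ra and Il13ra1 values was not tested.

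The balance within the pair can be read inside each library, where depth cancels. The Il4ra to Il13ra1 ratio of counts per kb was 0.571 and 0.748 in the STAT3-WT HDM libraries and 0.0125 to 0.0779 in the other 6. Il13ra1 was thus the more abundant chain in every library, and the gap was narrowest in the STAT3-WT HDM libraries. Il4ra rests on 3 to 14 reads in each of the other 6. The mix of cells does not cancel in this ratio, and the part of the markers given above was not tested.

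**Figure D3:**
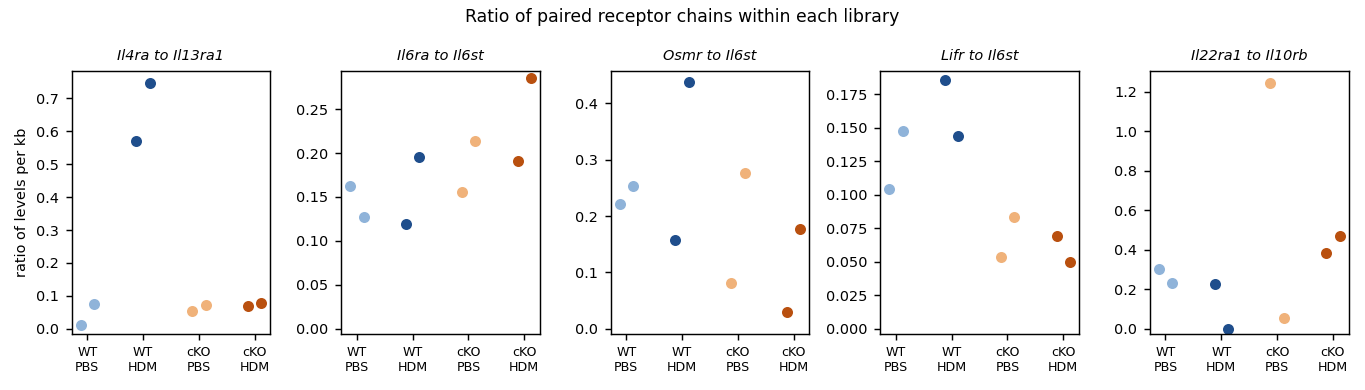
Ratio of levels per kb (vertical axes, linear, starting near 0) for 5 pairs of receptor chains within each library, by group. The Il4ra to Il13ra1 ratio is 0.571 and 0.748 in STAT3-WT HDM and at most 0.0779 elsewhere. The other 4 ratios overlap between STAT3-WT HDM and the remaining groups.

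Promoter sequences from RefSeq (GRCm38.p6, the build also called mm10) are shown for the type 2 pair, both chains of which set the STAT3-WT HDM libraries apart from all 6 others, and for Il6st, the shared STAT3-signalling chain. RefSeq promoters were matched by symbol for 8 of the 10 genes, with 9 start sites in all; Il10rb and Il17ra had no entry. In the 250 bases before the start, both strands were searched for TTCNNNGAA, the STAT site with a spacer typical of STAT3, and for TTC and GAA set 4 bases apart, the wider spacing preferred by STAT6. Neither was found in any of the 9 windows, while 7.02% and 5.85% of 32851 promoters of the same length held them. The absence says only that these letters are not in these windows. GGGCGG, the GC box, was present in 7 of 9 windows and in 32.7% of all promoters. In the stretches below, capitals mark GGGCGG or its complement CCGCCC, 5′ to 3′ on the plus strand. The Il13ra1 window is chrX:36111858-36112107 and the Il6st window is chr13:112463820-112464069, and neither holds an annotated exon. The longest run of capitals in the Il13ra1 window holds 2 matches that share a base.
Il13ra1: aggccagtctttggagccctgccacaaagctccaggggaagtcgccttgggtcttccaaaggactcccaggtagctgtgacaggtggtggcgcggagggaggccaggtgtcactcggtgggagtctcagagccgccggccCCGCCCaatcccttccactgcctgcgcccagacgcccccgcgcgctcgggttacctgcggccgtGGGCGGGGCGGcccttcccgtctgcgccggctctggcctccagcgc
Il6st: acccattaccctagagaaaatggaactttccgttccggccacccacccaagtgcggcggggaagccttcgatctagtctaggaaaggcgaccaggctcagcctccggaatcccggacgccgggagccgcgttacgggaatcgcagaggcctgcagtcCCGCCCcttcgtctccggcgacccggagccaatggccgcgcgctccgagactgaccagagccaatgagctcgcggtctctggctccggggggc
The Il4ra window (chr7:125552021-125552270) held ATGNAAAT, a relaxed form of the octamer motif of POU factors, 3 times, against 0 in the other 8 windows. Of all promoters, 5.03% held it at least once and 0.0365% held it 3 or more times. This motif was chosen after the sequence had been read. The 3 matches, in capitals, are given with 10 bases on either side, and they start 139, 67 and 34 bases before the RefSeq start. All 3 lie inside the first exon of 1 longer annotated transcript, Il4ra-201 (exon at 125552120 to 125552328), so they are upstream of the other starts and transcribed from that one.
Il4ra, chr7:125552122-125552149: ggggtggggcATGCAAATaagccagcga
Il4ra, chr7:125552194-125552221: ggggcggggcATGTAAATgaccgtgcac
Il4ra, chr7:125552227-125552254: ggggcgtcgcATGTAAATaagggacacc
A match to a motif is a description and shows no binding.

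The 4 chains of the IL-6 family had their highest group mean in STAT3-WT HDM, for Il6ra by little (27.2 against 26.7 in STAT3-cKO HDM). The share of all genes with their highest mean there was not computed. For 2 of the 4, both STAT3-WT HDM libraries lay above all 6 others, as for 8.99% of the 7512 genes tested. Il6st (chromosome 13, 112464070 to 112510086, plus strand) had 222 and 218 normalized counts in STAT3-WT HDM, 186 and 136 in STAT3-WT PBS, 159 and 128 in STAT3-cKO PBS, and 144 and 140 in STAT3-cKO HDM. The STAT3-WT HDM pair lay above all 6 others and within 5 counts of each other. With 98 to 341 reads per library, Il6st was the best measured of the 10 chains. Its HDM minus PBS difference was 0.46 ± 0.28 in STAT3-WT (-0.13 to 1.06; limma adjusted p = 0.710) and -0.01 ± 0.28 in STAT3-cKO (-0.60 to 0.59). Knockout minus wild type under HDM was -0.63 ± 0.28 (-1.22 to -0.03; limma adjusted p = 0.490).

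Lifr, the LIF receptor chain (chromosome 15, 7090614 to 7197489, plus strand), was at 39.1 and 29.7 normalized counts in STAT3-WT HDM and at 18.4 and 19.1 in STAT3-WT PBS. In STAT3-cKO it was at 8.13 and 10.2 with PBS and at 9.43 and 6.64 with HDM. All 4 knockout libraries were thus below all 4 wild-type libraries, and Lifr was the only tested member whose genotypes did not overlap under PBS as well as under HDM. Of all genes tested, 21.9% were below without overlap under HDM and 19.1% under PBS. The share with all 4 knockout libraries below all 4 wild-type libraries was not computed. Knockout minus wild type was -1.97 ± 0.75 under HDM (-3.57 to -0.38; limma adjusted p = 0.390) and -0.97 ± 0.75 under PBS (-2.56 to 0.63; limma adjusted p = 0.804). The knockout values rested on 5 to 13 reads per library. Of the marker lists, 4 likewise did not overlap between the PBS groups, all higher in STAT3-cKO. Club markers took 1.77% to 1.88% of reads in STAT3-WT PBS and 2.35% to 3.23% in STAT3-cKO PBS. Goblet markers took 0.0895% to 0.198% and 0.246% to 0.309%, epithelial markers 0.430% to 0.434% and 0.442% to 0.447%, and leukocyte markers 0.000417% to 0.000973% and 0.00201% to 0.00473%. Endothelial markers (0.0612% to 0.0657% and 0.0526% to 0.0886%) and fibroblast markers (0.0183% to 0.0289% and 0.0129% to 0.0282%) overlapped between the PBS groups. The part of these cells in the Lifr values was not tested.

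Osmr, the oncostatin M receptor chain (chromosome 15, 6813577 to 6874969, minus strand), had the largest standard error of this family on the log2 scale (0.93, against 0.28 to 0.75). It had 17.6 and 47.7 normalized counts in STAT3-WT HDM, 20.7 and 17.3 in STAT3-WT PBS, 6.51 and 17.8 in STAT3-cKO PBS, and 2.18 and 12.5 in STAT3-cKO HDM. Under HDM the knockout libraries lay below the wild-type libraries (-2.20 ± 0.93, -4.19 to -0.22; limma adjusted p = 0.461), while under PBS the genotypes overlapped. Il6ra, the private chain that binds IL-6 (chromosome 3, 89864059 to 89913196, minus strand), overlapped between genotypes in both treatments. It had 20.9 and 33.5 in STAT3-WT HDM, 23.7 and 13.6 in STAT3-WT PBS, 19.5 and 21.6 in STAT3-cKO PBS, and 21.8 and 31.6 in STAT3-cKO HDM. Its knockout minus wild-type difference under HDM was -0.01 ± 0.62, with an interval of -1.33 to 1.30 that leaves room for a difference of either sign. An antisense gene, Gm42809, overlaps Il6ra in the annotation.

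Within each library, the private chains kept their rank below gp130. The ratio to Il6st, per kb, was 0.119 to 0.286 for Il6ra over the 8 libraries. For Osmr it was 0.158 to 0.438 in STAT3-WT HDM and 0.0301 to 0.277 in the other libraries. For Lifr it was 0.144 to 0.186 in STAT3-WT HDM, 0.104 to 0.148 in STAT3-WT PBS and 0.050 to 0.0837 in the 4 knockout libraries. Only the Lifr ratio set the 4 knockout libraries apart from the 4 wild-type libraries among the 5 ratios computed. How often ratios of other genes do so was not computed.

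**Figure D4:**
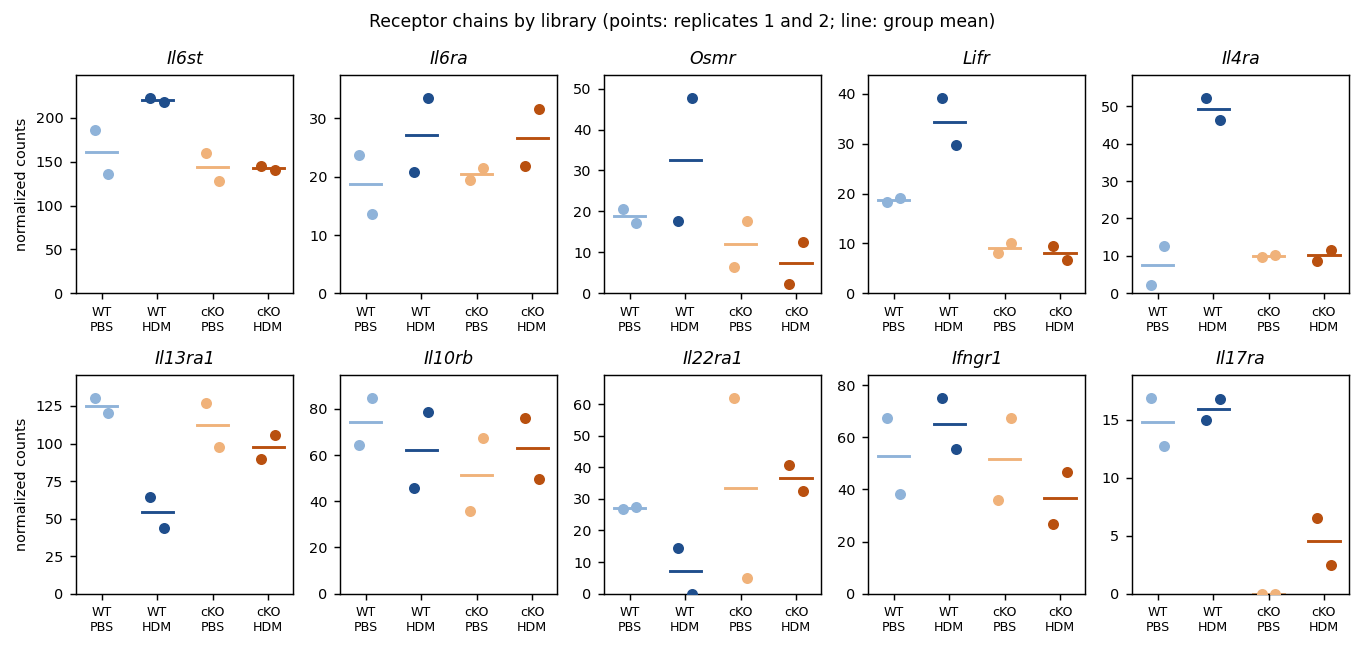
Normalized counts (vertical axes, linear, starting at 0) of the 10 receptor chains in each library. Points are replicates 1 and 2 and the line is the group mean. Il4ra, Il6st and Lifr are highest in both STAT3-WT HDM libraries, Il13ra1 is lowest there, and Il17ra is at 0 in both STAT3-cKO PBS libraries.

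Of the class II chains, Il22ra1 (chromosome 4, 135728172 to 135752140, plus strand), the chain that gives epithelium its response to IL-22, was low in STAT3-WT HDM. It had 14.3 and 0 normalized counts there (22 and 0 reads), 26.8 and 27.3 in STAT3-WT PBS, and 40.6 and 32.4 in STAT3-cKO HDM. The STAT3-cKO PBS libraries were far apart, at 61.8 and 5.08. HDM minus PBS in STAT3-WT was -2.84 ± 1.18 (-5.35 to -0.33; limma adjusted p = 0.487), and knockout minus wild type under HDM was 3.25 ± 1.18 (0.74 to 5.76; limma adjusted p = 0.352). Both sizes depend on the library with 0 reads: without it they were -0.87 and 1.28. The corresponding edgeR estimates on the recovered reads were -1.74 and 2.18. The Il22ra1 to Il10rb ratio was 0 to 0.226 in STAT3-WT HDM and 0.384 to 0.468 in STAT3-cKO HDM, and spanned 0.0543 to 1.24 in STAT3-cKO PBS.

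Il10rb (chromosome 16, 91406164 to 91425834, plus strand) overlapped between groups in all 4 pairwise comparisons. It had 45.6 and 78.6 normalized counts in STAT3-WT HDM, 64.3 and 84.6 in STAT3-WT PBS, 35.8 and 67.3 in STAT3-cKO PBS, and 76.2 and 49.8 in STAT3-cKO HDM. Its difference between genotypes under HDM was 0.04 ± 0.44 (-0.91 to 0.99). Gm21970, a protein-coding gene annotated on the same strand, overlaps it and has no row in the table. Ifngr1 (chromosome 10, 19591949 to 19610229, plus strand) had 75.0 and 55.4 normalized counts in STAT3-WT HDM, 67.4 and 38.2 in STAT3-WT PBS, 35.8 and 67.3 in STAT3-cKO PBS, and 26.8 and 46.5 in STAT3-cKO HDM. Under HDM the knockout libraries lay below the wild-type libraries (-0.85 ± 0.48, -1.88 to 0.18; limma adjusted p = 0.620). In the STAT3-cKO PBS libraries Ifngr1 and Il10rb had the same reads, 22 and 53, which is why their values coincide there.

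Il17ra, the IL-17 receptor chain (chromosome 6, 120463247 to 120487559, plus strand), was the scarcest member. It had 15.0 and 16.8 normalized counts in STAT3-WT HDM, 16.8 and 12.7 in STAT3-WT PBS, 6.53 and 2.49 in STAT3-cKO HDM, and no reads in either STAT3-cKO PBS library. The 4 wild-type libraries lay above the 4 knockout libraries, a separation whose share over all genes was not computed. Its mean of 8.79 was below the minimum of 10 for testing. The floor of 3 reads in each STAT3-cKO PBS library gives a mean of 4.34, and the STAT3-WT PBS mean of 14.8 was 3.40 times that. This ratio takes the STAT3-WT PBS mean, which rests on 22 and 14 reads, as exact. It also leaves out the spread between libraries, so a smaller fold remains possible. When the minimum was dropped, Il17ra did not pass for the genotypes under PBS (limma adjusted p = 0.779) or under HDM (limma adjusted p = 0.700). The knockout PBS libraries were also the shallowest, at 232556 and 298311 reads.

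Across the study's comparisons, 0 of the 9 chains tested passed with limma. For HDM against PBS in STAT3-WT this count of 0 stands beside 0.519% of all 7512 genes tested. An unadjusted p under 0.05 was reached by 3 of 9 (Il4ra, Il13ra1 and Il22ra1), against 8.93% of all genes. The libraries of the 2 groups did not overlap for 5 of 9: Il6st, Lifr and Il4ra were above (21.2% of all genes) and Il13ra1 and Il22ra1 below (20.8%). Il4ra reached the minimum for testing through the STAT3-WT HDM group, so its place in both counts is a description. The median difference of the 9 chains was 0.46, against -0.03 over all genes tested. edgeR and DESeq2, run on the recovered reads, also called 0 of 9, beside 0.785% and 1.78% of all genes.

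For HDM against PBS in STAT3-cKO, 0 of 9 passed with limma (0.0532% of all genes), and 0 of 9 had an unadjusted p under 0.05 (7.77% of all genes). edgeR and DESeq2 called 0 of 9, beside 0.0532% and 0.373% of all genes. Il6ra alone was non-overlapping and above (19.0% of all genes), and no tested chain was non-overlapping and below (16.7%). The median difference was -0.01, against 0.10 over all genes.

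For STAT3-cKO against STAT3-WT under HDM, 0 of 9 passed with limma (0.572% of all genes), and 6 of 9 had an unadjusted p under 0.05 (9.6% of all genes). These were Il6st, Osmr, Lifr and Il4ra, lower in the knockout, and Il13ra1 and Il22ra1, higher. The groups did not overlap for 7 of 9, with Il13ra1 and Il22ra1 above (21.1% of all genes) and Il6st, Osmr, Lifr, Il4ra and Ifngr1 below (21.9%). Il4ra is again in both counts although it reached the minimum for testing through the STAT3-WT HDM group. The median difference was -0.63, against 0.02 over all genes. edgeR and DESeq2 called 0 of 9, beside 0.719% and 1.86% of all genes. This comparison and the HDM effect in STAT3-WT share the STAT3-WT HDM libraries, so their opposite signs are not separate evidence.

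For STAT3-cKO against STAT3-WT under PBS, limma, edgeR and DESeq2 called 0 of 9 chains and 0.0% of all genes. An unadjusted p under 0.05 was reached by 0 of 9, against 6.96% of all genes. Lifr was the only tested chain with no overlap, below in the knockout (19.1% of all genes were below and 15.7% above). The median difference was -0.16, against -0.09 over all genes. The PBS groups include the library pair that resembled each other least (r = 0.56 across genes in STAT3-cKO PBS, against 0.68 to 0.77 in the other groups).

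The genotype by treatment interaction was passed by 0 of 9 chains with limma (0.0266% of all genes), edgeR (0.0932%) and DESeq2 (0.367%). An unadjusted p under 0.05 was reached by Il4ra, Il13ra1 and Il22ra1 (7.77% of all genes). Averaged over genotypes, the HDM effect was passed by 0 of 9 chains with limma (0.399% of all genes), edgeR (0.572%) and DESeq2 (1.41%). Here Il4ra (1.46 ± 0.62, limma adjusted p = 0.539) and Il13ra1 (-0.70 ± 0.24, limma adjusted p = 0.397) had an unadjusted p under 0.05, as did 8.45% of all genes. In the interaction and the averaged effect alike, Il4ra was tested through the STAT3-WT HDM group, so its place is a description. The 95% intervals of the pairwise differences extended 0.60 to either side for Il6st and 2.51 for Il22ra1. They extended less than 1, a 2-fold change, to either side only for Il6st, Il13ra1 and Il10rb.

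**Figure D5:**
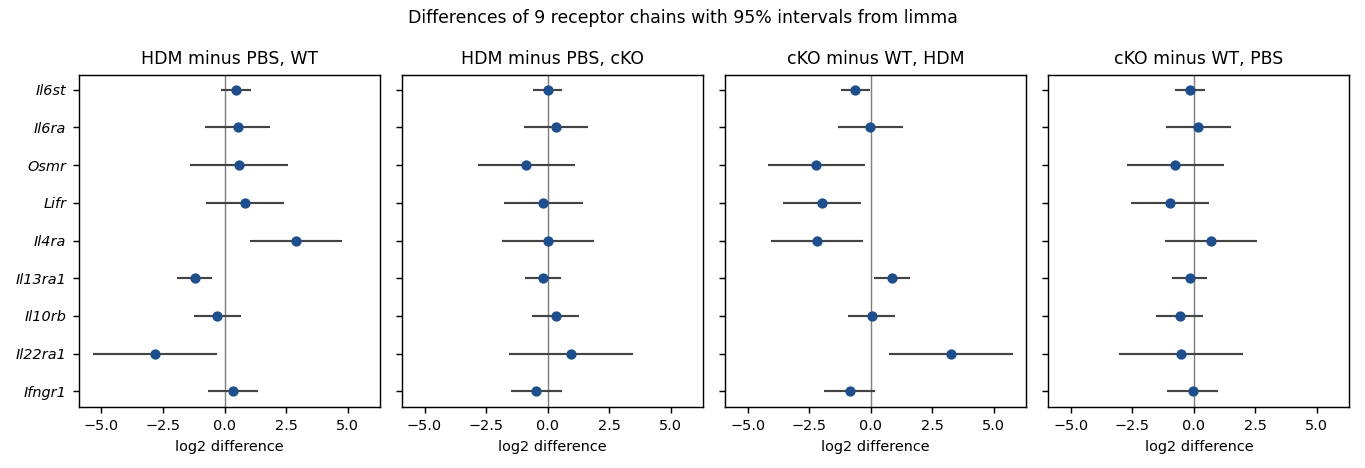
Log2 differences (horizontal axes) of the 9 receptor chains tested, with limma's 95% intervals as bars, in 4 pairwise comparisons. Intervals that leave 0 occur for Il4ra, Il13ra1 and Il22ra1 in HDM minus PBS in STAT3-WT and for 6 chains in knockout minus wild type under HDM. No chain passed after adjustment over 7512 genes.

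The other genes of these pathways were followed through lists. Of 27 further receptor chains, 8 were tested and 0 passed in any of the 6 comparisons. Il13ra2, the decoy receptor for IL-13, Il20ra, Il17rb and Il1rl1, the receptor for IL-33, had no read in any library. Ifngr2, the partner of Ifngr1, ranged from 1.45 to 73.5 normalized counts, with 19.6 and 73.5 in STAT3-WT HDM and 1.45 and 17.4 in STAT3-cKO HDM (-2.54 ± 1.08, limma adjusted p = 0.461). Il2rg, the common gamma chain that forms the other IL-4 receptor with Il4ra and is typical of leukocytes, was too low to test. It had 7.17 and 11.6 normalized counts in STAT3-WT HDM and at most 3.32 elsewhere. Il10ra, the private IL-10 receptor chain, also mostly a leukocyte gene, had reads only in the 2 STAT3-WT HDM libraries, at 7.17 and 1.29.

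Ligands were nearly absent from the sorted cells. Of 22 listed, 16 had no read in any library, including Il6, Il4, Il13, Il10, Il22, Ifng, Il17a and Tslp. Only Il33, the epithelial alarmin, was abundant enough to test. It had 104 and 162 normalized counts in STAT3-WT HDM, 8.42 and 20.9 in STAT3-WT PBS, 11.4 and 6.35 in STAT3-cKO PBS, and 20.3 and 13.3 in STAT3-cKO HDM. It rose with HDM in STAT3-WT (3.19 ± 0.66, limma adjusted p = 0.0420). The difference in STAT3-cKO was 0.87 ± 0.66 (limma adjusted p = 0.752). The STAT3-WT call was lost when either library of STAT3-WT HDM, STAT3-cKO HDM or STAT3-WT PBS was left out (limma adjusted p of 0.0706 to 0.721).

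The kinases and STATs downstream of the chains gave no call. Of 11 listed, 7 were tested and 0 passed in any of the 6 comparisons. For HDM against PBS in STAT3-WT all 7 had positive differences with a median of 0.97 (-0.03 over all genes), and for knockout against wild type under HDM all 7 were negative with a median of -0.62 (0.02 over all genes). Stat3, the targeted gene, is among the 7. Both comparisons share the STAT3-WT HDM libraries, so the opposite signs are not separate evidence. Jak1, the kinase bound by gp130 and Il4ra, had 65.9 and 70.9 normalized counts in STAT3-WT HDM, 58.2 and 34.6 in STAT3-WT PBS, 40.7 and 26.7 in STAT3-cKO PBS, and 38.5 and 44.0 in STAT3-cKO HDM. Stat6, the transcription factor of the type 2 receptor, had 117 and 155, 78.8 and 151, 120 and 52.1, and 82.7 and 99.7 in the same order, with overlapping PBS and HDM libraries in STAT3-WT. Of 24 feedback regulators and adaptors (Socs, Pias and Ptpn genes, insulin receptor substrates, sheddases of receptor chains), 20 were tested and 0 passed in any comparison.

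Output genes gave the only further calls. Of 16 genes listed as targets of IL-4, IL-13 and STAT6, 8 were tested. Of these, 6 rose with HDM in STAT3-WT (0.519% of all genes passed): Clca1, Retnla, Chil3, Chil4, Chia1 and Slc26a4. Chil3 and Slc26a4 reached the minimum for testing only through the STAT3-WT HDM group, with means there of 282 and 126 normalized counts against at most 22.2 and 13.4 in any other group, so their count among the 6 is a description. Chia1, an acidic chitinase, had 305 and 464 normalized counts in STAT3-WT HDM against 26.8 and 45.5 in PBS (3.39 ± 0.44, limma adjusted p = 0.00163). In STAT3-cKO, 2 of the 8 rose (0.0532% of all genes passed), Chia1 (3.14 ± 0.44, limma adjusted p = 0.0104) and Chil4 (7.04 ± 0.86, limma adjusted p = 0.00451). For genotype under HDM and for the interaction, 0 of 8 passed (0.572% and 0.0266% of all genes). An unadjusted limma p under 0.05 was reached by 3 of 8 for genotype under HDM (9.6% of all genes) and 0 of 8 for the interaction (7.77%). The 8 include Chil3 and Slc26a4, tested through the STAT3-WT HDM group. The median HDM difference of the 8 was 3.31 in STAT3-WT and 2.41 in STAT3-cKO, against -0.03 and 0.10 over all genes. The count of 6 in STAT3-WT fell to 0 without the second STAT3-WT HDM library, to 1 without the first STAT3-WT PBS library, and to 3 without either remaining library of those groups. The count of 2 in STAT3-cKO went to 0 without any 1 of the 4 HDM libraries and to 5 without the second STAT3-cKO PBS library. Averaged over genotypes, the same number, 6 of 8, rose (0.399% of all genes passed). The macrophage and other non-epithelial markers given above were high in the STAT3-WT HDM libraries, and their part in these values was not tested. In the STAT3-cKO HDM libraries, where Il4ra had 8.71 and 11.6 normalized counts, Clca1 had 1565 and 3287 and Retnla 938 and 1120, differences from PBS that did not pass (limma adjusted p = 0.130 and 0.0632).

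Of 15 genes listed as targets of STAT3, 13 were tested and 1 passed, for genotype under HDM (0.572% of all genes). Pim1, a kinase gene induced by gp130 cytokines, had 43.7 and 94.1 normalized counts in STAT3-WT HDM and no reads in either STAT3-cKO HDM library, with 3.83 and 4.55 in STAT3-WT PBS and 13.0 and 25.4 in STAT3-cKO PBS. It fell in the knockout under HDM (limma adjusted p = 0.0205), but reached the minimum for testing only through the STAT3-WT HDM group, where it is high. Leaving out either library of the HDM groups, or the second STAT3-WT PBS library, ended the call (limma adjusted p of 0.0508 to 0.498). Socs3, the feedback inhibitor of gp130 and a standard STAT3 target, had 30.0 and 32.2 in STAT3-WT HDM and 31.9 and 30.7 in STAT3-cKO HDM. For the list, the median genotype difference under HDM was -0.79 (0.02 over all genes). Of 10 genes listed for the IL-17 receptor 2 were tested, and of 12 listed for the interferon gamma receptor 6 were tested, with 0 passing in any comparison.

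The genes whose pattern over the 8 libraries was most like that of a chain were found by Pearson's r of log2(value + 1). These are descriptions over 8 libraries that share groups and depths. Il4ra was closest to Lrrk2 (r = 0.97), Gpcpd1 (0.97) and Med15 (0.96), all highest in STAT3-WT HDM. Il13ra1 was closest to Pglyrp1 (0.98), Hacd2 (0.97) and Mdn1 (0.97). Il6st was closest to Tmem30a (0.95), the kinase Jak1 (0.95) and Fcgrt (0.95). Lifr was closest to Errfi1 (0.96), Lpl (0.96) and App (0.94). Osmr was closest to Srsf5 (0.95), Ddb1 (0.94) and Rbm33 (0.94). Il6ra was closest to Pcnt (0.99), Etl4 (0.97) and Ormdl2 (0.95). Il22ra1 was close to Cpt1a (0.99) and Ak3 (0.98), and Il10rb was closest to Man2b2 (0.97), Map4k5 (0.97) and Xpo5 (0.96). Ifngr1 had the weakest best match, Ets2 (0.91), followed by Rps23 (0.91) and Scp2 (0.89). Among the chains themselves, Il4ra and Il13ra1 ran opposite (-0.84), as did Osmr and Il22ra1 (-0.75). Il13ra1 and Il22ra1 ran together (0.81), as did Il6st and Lifr (0.80). Stat3 ran with Il6ra (0.76) and opposite to Il13ra1 (-0.84).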

How the data were processed

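RNA-seq libraries of sorted airway epithelial cells were built from 1 ng of TRIzol-extracted total RNA with a directional kit, per the labels' protocols. HOMER, DESeq2 and mm10 are named in the submitters' processing notes; aligner, annotation, versions and use of strand are not stated. The authors deposited 1 normalized signal value (a read count after scaling) per gene and library. Every value was a whole multiple of the value of 1 read in its library (100% of values, tolerance 0.01), which gave 232556 to 593200 reads per library.

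Values were analysed as log2(value + 1) with limma 3.58.1 in R 4.3.3 (1 mean per group over all 8 libraries, moderated with a trend). The 7512 genes with a mean of at least 10 were tested, two-sided, with Benjamini-Hochberg adjustment over all of them and a threshold of 0.05. Fold changes on this scale can understate or overstate the change of low genes. For Il22ra1 and HDM in STAT3-WT, limma gave -2.84, against -1.74 with edgeR and -1.82 with DESeq2. Errors after ± are standard errors. The quasi-likelihood test of edgeR 4.0.16 and DESeq2 1.42.0 were run on the recovered reads. In simulated reads over 7512 genes for HDM against PBS in STAT3-WT, limma found 4% of the genes changed 2-fold, 40% of those at 4-fold, 70% at 8-fold and 78% at 16-fold, and 7 of its 103 calls were false.

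Exon lengths, positions and overlaps came from GENCODE M21 (mm10). All 10 chains and Stat3 were named whatever their values. From the lists, genes that passed were named, along with others of small p. The 3 most alike genes per chain exclude predicted genes, and some genes these rules would name are not reported here. Genes cited for their absence or their role beside a chain (Il2rg, Il10ra, Il13ra2, Socs3, Stat6) were chosen after their values were seen. The members and lists were chosen with earlier results of these data known.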

Additional observations from a re-analysis of the deposited data

How the results depend on the processing

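Over 47 member differences, 950 alternative values were computed; 915 kept direction and side of the threshold, 2 crossed it and 33, spread over 18 differences, changed sign. The 2 that crossed were both for HDM against PBS in STAT3-WT, where the count of chains passing went from 0 to 1 with a minimum mean of 50 (Il13ra1, limma adjusted p = 0.0460) and to 1 with only the libraries of the groups compared (Il4ra, limma adjusted p = 0.0196). Stat3 also passed for HDM in STAT3-WT under both settings. Il4ra was tested through the STAT3-WT HDM group, so its pass is a description. None of the 18 passed under the main settings, and their sizes there were at most 0.93. With quantile normalization, Il6st and Il4ra for HDM in STAT3-cKO became 0.051 and -0.35, and Il6ra for genotype under HDM 0.069. With edgeR the Il6st and Il6ra values became 0.0068 and 0.013. For genotype under PBS, Il22ra1 became 0.26 with edgeR and 0.31 with DESeq2.

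Leaving out 1 library at a time gave these ranges. For HDM in STAT3-WT they were -0.10 to 1.29 for Osmr, -0.68 to 0.091 for Il10rb and -0.062 to 0.74 for Ifngr1. For HDM in STAT3-cKO they were -0.16 to 0.15 for Il6st, -1.90 to 0.18 for Osmr, -0.40 to 0.048 for Lifr, -0.17 to 0.20 for Il4ra, -0.12 to 0.77 for Il10rb and -0.75 to 2.62 for Il22ra1. For genotype under HDM they were -0.34 to 0.32 for Il6ra and -0.35 to 0.43 for Il10rb. For genotype under PBS they were -0.38 to 0.068 for Il6st, -0.20 to 0.56 for Il6ra, -0.33 to 1.73 for Il4ra, -0.35 to 0.022 for Il13ra1, -2.21 to 1.16 for Il22ra1, -0.49 to 0.40 for Ifngr1 and -0.031 to 0.84 for Stat3. For the interaction the range for Il6ra was -0.57 to 0.19. With 1 library left in a group, that library is assumed to vary like the other groups. The cause was not tested.

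Counts over all genes moved far more. In STAT3-WT the 39 genes passing for HDM became 1 to 190 over the settings and 3 to 110 with a library left out, and the 43 for genotype under HDM became 0 to 142 and 3 to 117. The 4 for HDM in STAT3-cKO became 0 to 28 and 0 to 320, the 2 for the interaction 0 to 27 and 0 to 115, and the 30 for the averaged HDM effect 8 to 106 and 10 to 193. Genotype under PBS stayed at 0 over the settings and reached 315 with a library left out. The 6 STAT6 output genes in STAT3-WT became 3 with a pseudocount of 0.2 or no filter and 0 without a variance trend, and the 2 in STAT3-cKO ranged from 0 to 5. Under the first 3 of these settings Il33 and Pim1 did not pass.

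Replicate numbers did not pair the samples (correlations of same-numbered deviations of -0.016 to 0.018), and with a replicate block 0 chains passed in any comparison, as without it; over all genes the counts were 43 for HDM in STAT3-WT, 5 in STAT3-cKO, 48 for genotype under HDM, 0 under PBS, 3 for the interaction and 34 averaged. Depth limits the low chains most: Il4ra, Osmr, Lifr and Il17ra rest on fewer than 15 reads in several libraries.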
